A study of Mus musculus with 3 samples.

Results

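The longest stretches of chromatin carrying acetylated lysine 27 of histone H3 (H3K27ac) were described in a mouse pre-B-cell model of acute lymphoblastic leukaemia. H3K27ac peaks on the same chromosome were stitched when the gap between them was 12.5 kb or less, and regions whose peaks summed to 20000 bp or more were kept. This gave 328 of 16134 stitched regions (2.03% of them), called long acetylated regions here. The cells were driven by Bcr-Abl, a fusion tyrosine kinase, and grew in culture, unstimulated and untreated. ChIP-seq, which sequences the DNA pulled down with an antibody, was done on 3 samples: 1 for H3K27ac, 1 for H3 trimethylated at lysine 4 (H3K4me3) and 1 for control immunoglobulin (IgG), with no replicates. The IgG library was not analysed here. The labels do not say whether the cells are 1 clone.

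H3K27ac is written by the acetyltransferases CBP and p300 and is found at active promoters and enhancers. H3K4me3 is written by SET1 and MLL complexes and is concentrated at the start sites of genes. Super-enhancers are clusters of enhancers with very high H3K27ac, Mediator or transcription factor signal, and in blood cells they often lie near genes that set cell identity. They are usually found by stitching peaks and ranking the stitched regions by ChIP signal, often after promoter peaks are removed.

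The long acetylated regions differ from super-enhancers in their definition. They were chosen by peak length alone, since read density was not at hand, and promoter peaks were kept. H3K27ac widths and gaps chose the regions, so their summed width, peak number, span and fill are descriptions of the selection and no test was made on them. H3K4me3 peaks come from another library and were not used in the choice. Positions are on the mouse build mm9, counted from 1. No annotation of mm9 was used, so regions are named by position and rank, genes were not assigned, and B-cell markers could not be checked. Percentages carry exact 95% binomial (Clopper-Pearson) intervals, which cover only counting error and take regions or peaks to be independent. Sequencing depth is unknown.

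The 328 regions held 2756 H3K27ac peaks, 9.35% of the list, and 10.0 Mb of peak width, 15.2% of the total. Summed width ran from 20.1 to 109 kb with a median of 26 kb (quartiles 22.5 and 32.6 kb). The distribution was steep at the top: 31 regions held 50 kb or more, 150 held 25 to 50 kb and 147 held 20 to 25 kb. From the first to the last peak the regions spanned 20.1 to 204 kb, with a median of 50 kb (quartiles 37.6 and 64.8 kb), and 19 spanned 100 kb or more.

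Widths ran without a break across the limit. The 3 smallest had 20121 bp (chromosome 5, 73630568 to 73685749), 20098 bp (chromosome 16, 16854385 to 16874482) and 20072 bp (chromosome 3, 58305188 to 58331331). The 3 largest that were left out had 19829 bp (chromosome 13, 24483572 to 24509466), 19800 bp (chromosome 8, 86707195 to 86746946) and 19755 bp (chromosome 5, 101273130 to 101309662). Each of these 6 held H3K4me3, with 2 to 5 peaks. For comparison, 931 regions with 10000 to under 20000 bp are given below as mid-length regions.

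**Figure D1:**
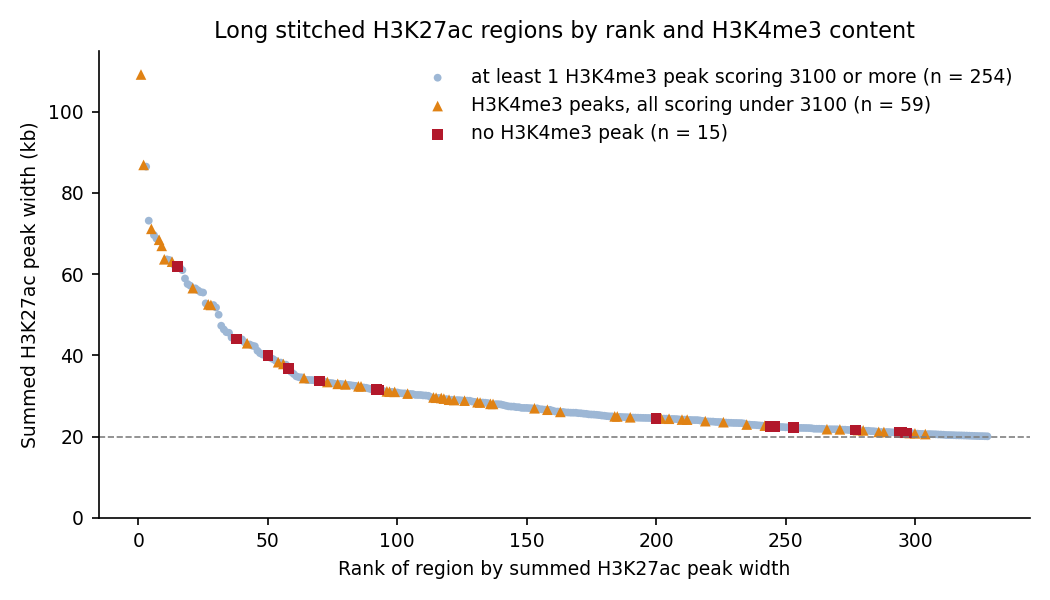
Summed H3K27ac peak width in kb (vertical axis) of the 328 long acetylated regions by rank (horizontal axis); each point is 1 region, its colour and shape give its H3K4me3 content, and the dashed line is the limit of 20 kb. Regions whose H3K4me3 peaks all score under 3100 include 6 of the 10 largest, and the 15 regions without H3K4me3 are spread over the ranks from 15 to 297.

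Most regions were chains of several peaks and not single domains. The median was 8 peaks (quartiles 6 and 10, range 1 to 36), against 4 in mid-length regions. Regions with 6 to 10 peaks made up 171 of the 328, those with over 10 made up 79, those with 3 to 5 made up 67 and those with 1 or 2 made up 11. Gaps inside the regions had a median of 1928 bp (quartiles 433 and 5351 bp), and 37.3% of the 2428 gaps were 1000 bp or less. With peaks 1000 bp or less apart joined into 1, the median fell from 8 to 5 peaks per region.

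Fill, the summed peak width as a percentage of the span, had a median of 57.0% (quartiles 46.7 and 69.6%). It was highest in 3 regions made of 1 uninterrupted peak, which lay on chromosome 17 (46164219 to 46189357, 25.1 kb), chromosome 14 (51664448 to 51686049, 21.6 kb) and chromosome 16 (16854385 to 16874482, 20.1 kb). It was lowest on chromosome 7 (134338094 to 134440536, 25.2%), chromosome 3 (88967340 to 89056877, 25.4%) and chromosome 17 (34026041 to 34118978, 27.9%). These 3 sparse regions were strings of 11, 13 and 12 separate peaks, none wider than 4.46 kb, over 89.5 to 102 kb.

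Wide single peaks were common, but they gave a smaller part of the summed width than in mid-length regions. The widest peak of a region measured 9.57 kb at the median and 39.7 kb at most. In 154 regions (47.0%) it was 10 kb or more, where 12.8% of mid-length regions showed this. Peak widths chose the regions, so these values are descriptions of the selection. The widest peak made up a median of 32.5% of the summed width, against 43.6% in mid-length regions. In 69 regions (21.0%) it gave 50% or more, where 37.6% of mid-length regions showed this. These 69 were compact, with a median of 5 peaks and a span of 33.3 kb. In 82 regions it gave under 25%, and these had a median of 11 peaks and a span of 64.1 kb.

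The widest peak had the tied score of 3100, or more, in 309 of the 328 regions (94.2%, interval 91.1 to 96.5%), where 34.4% of all stitched regions and 87.3% of the mid-length ones (interval 85.0 to 89.4%) showed this. Scores come from the same H3K27ac list whose widths chose the regions, so these shares are descriptions of the selection. How far score follows peak width was not tested. The score is the authors' own undefined value per peak; many peaks are tied at 3100, so it serves only to set strongly from weakly scored peaks of the same list. Over all peaks of the regions the share with 3100 or more was 32.8% (903 of 2756, interval 31.0 to 34.6%), where 24.1% of the whole H3K27ac list reached it. In mid-length regions the share was 31.2% (interval 29.8 to 32.6%), and the intervals overlapped. The long regions thus mixed high-scoring wide peaks with many weak ones, a median of 3 high-scoring peaks among 8. Mid-length regions were mixed as well, with a median of 1 among 4.

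H3K4me3 was present in nearly all long acetylated regions. Of the 328, 313 held at least 1 H3K4me3 peak (95.4%, interval 92.6 to 97.4%), where 69.7% of all stitched regions did. Mid-length regions reached 92.6% (interval 90.7 to 94.2%), and this interval overlapped that of the long regions. The long regions also span more bases, and no allowance was made for that in these shares.

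The number of H3K4me3 peaks varied widely, from 0 to 15 with a median of 3 (quartiles 2 and 5). There were 15 regions with none, 31 with 1, 59 with 2, 123 with 3 or 4, 76 with 5 to 7 and 24 with 8 or more. Mid-length regions had a median of 2. Per 10 kb of span the order turned round, with a median of 0.697 H3K4me3 peaks in the long regions and 0.841 in the mid-length ones. The long regions therefore held more H3K4me3 peaks in number and fewer per length.

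H3K4me3 took up a minor part of the acetylated length. The median region had 28.5% of its H3K27ac width under H3K4me3 (quartiles 16.7 and 40.4%, range 0 to 87.3%), against 35.6% in mid-length regions (quartiles 19.4 and 54.0%). Pooled over the regions the share was 28.4%, against 45.7% over all H3K27ac peaks. Among the 31 regions of 50 kb or more the median was 17.8%, among those of 25 to 50 kb 26.9% and among those of 20 to 25 kb 32.2%. Across the 328 regions the rank correlation of summed width with this share was -0.23, and over the 931 mid-length regions -0.046, given as a description, since summed width is also the denominator of the share.

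Peak by peak, a smaller share of H3K27ac peaks overlapped H3K4me3 inside the long regions than elsewhere; no test across samples was possible. Of the 2756 peaks, 1038 overlapped H3K4me3 (37.7%, interval 35.9 to 39.5%), where 52.3% of the whole H3K27ac list did. Mid-length regions stood between, with 45.6% (interval 44.1 to 47.1%), and the 3 intervals for long, mid-length and all shorter regions (53.8%, interval 53.2 to 54.4%) did not overlap. Peaks of a region share their surroundings, so these intervals are too narrow. The share also depends on how finely peaks are split. With gaps of 1000 bp or less joined, 48.9% of the peaks in the long regions overlapped H3K4me3 (interval 46.6 to 51.3%). No joined value was computed for the other sets. Such gaps made up 37.3% of the gaps in long regions and 29.3% in mid-length ones.

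The same direction was seen in each class of peak width. Among peaks under 1000 bp, 5.10% of those in the long regions overlapped H3K4me3 (interval 3.52 to 7.13%), against 25.6% in all shorter regions. Among peaks of 1000 to 2000 bp the shares were 17.3% (interval 14.3 to 20.5%) and 50.04%, and among peaks of 2000 to 4000 bp 46.2% (interval 42.5 to 49.9%) and 71.4%. Among peaks of 4000 bp or more the shares were 70.3% (interval 67.0 to 73.4%) and 79.7% (interval 78.1 to 81.3%). In mid-length regions the shares were 10.3, 27.5, 57.2 and 79.9%, from the narrowest class to the widest. Small peaks of the long regions were thus nearly all free of H3K4me3, while most wide ones carried it. In mid-length regions, too, most small peaks were free of it and most wide ones carried it. The same direction was seen at high scores, where 80.2% of the peaks at 3100 or more overlapped H3K4me3 in the long regions. The share was 86.5% in mid-length regions and 92.4% in all shorter regions. All these shares use peaks as listed, without joining close ones.

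**Figure D2:**
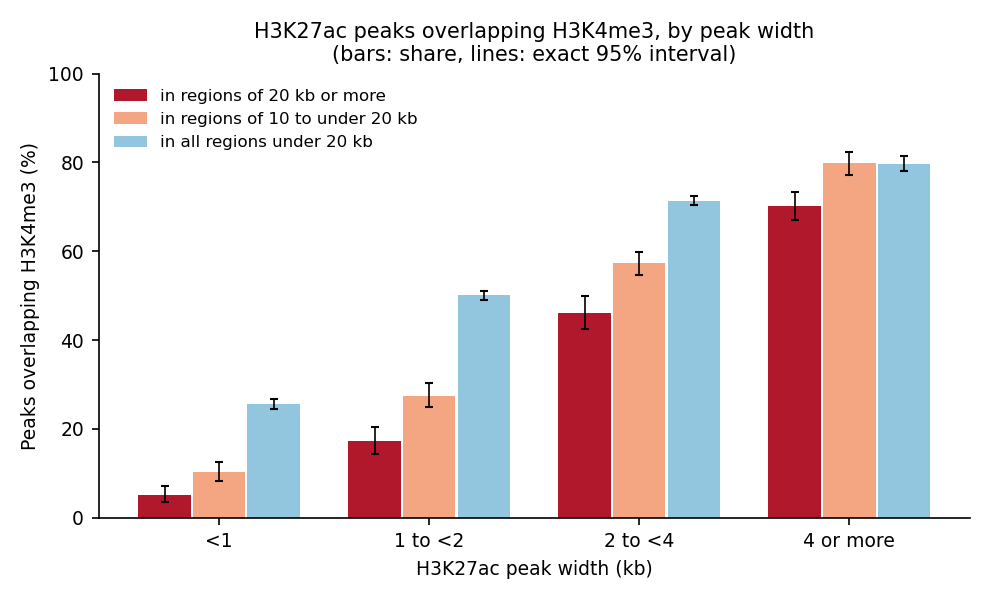
Percentage of H3K27ac peaks that overlap H3K4me3 (vertical axis) in 4 classes of peak width in kb (horizontal axis), for peaks in the long acetylated regions, in mid-length regions of 10 to under 20 kb and in all regions under 20 kb, with exact 95% intervals. In every class the peaks of the long regions have the lowest share, from 5.10% in the narrowest to 70.3% in the widest.

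The widest peak overlapped H3K4me3 in most long regions. Of the 1038 H3K27ac peaks that overlapped H3K4me3, 254 were the widest of their region. The 328 regions have only 328 widest peaks, so most of the 1038 had to be other peaks. Of the 328 widest peaks 77.4% overlapped H3K4me3, against 37.7% of all 2756 H3K27ac peaks of the regions. No allowance was made for peak width in this comparison. In the 325 regions with 2 or more peaks the widest peak overlapped H3K4me3 in 251 (77.2%, interval 72.3 to 81.7%), where 67.6% of all stitched regions of 2 or more peaks showed this. In mid-length regions the share was 81.0% (interval 78.3 to 83.6%), and the intervals overlapped. Where the widest peak of a long region met H3K4me3, a median of 38.4% of that peak lay under it (quartiles 20.3 and 62.8%), so most of it lay outside H3K4me3. In 59 of the 313 regions with H3K4me3 the widest peak had none, and the mark sat on smaller peaks.

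H3K4me3 peaks in the long regions were of mixed score and included a larger share of broad peaks than the whole list. They numbered 1248, and 1239 of them touched an H3K27ac peak (99.3%), where 86.1% of the whole H3K4me3 list and 99.5% of those in mid-length regions did. The regions are built from H3K27ac peaks, so near-complete contact inside them follows largely from the rule. Of the 1248, a width of 4000 bp or more was reached by 186 (14.9%, interval 13.0 to 17.0%), where 5.83% of the list reached it, and by 12.1% in mid-length regions (interval 10.8 to 13.6%). A score of 3100 or more was reached by 523 (41.9%, interval 39.2 to 44.7%), where 50.3% of the list reached it. In mid-length regions the share was 44.9% (interval 42.8 to 47.0%), and the intervals overlapped. Among H3K4me3 peaks outside the long regions that overlapped H3K27ac it was 59.7% (interval 58.9 to 60.5%). The 9 H3K4me3 peaks in gaps between H3K27ac peaks had a median score of 134 (range 60 to 1460) and a median width of 694 bp (range 349 to 1835 bp).

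At least 1 high-scoring H3K4me3 peak, at 3100 or more, was held by 254 of the 328 regions (77.4%, interval 72.5 to 81.8%), where 47.8% of all stitched regions held one. Mid-length regions reached 67.1% (interval 64.0 to 70.1%). The long regions span more bases, and no allowance was made for that. In 59 regions (18.0%, interval 13.98 to 22.6%) H3K4me3 was present but every peak scored lower, where 21.9% of all stitched regions and 25.5% of the mid-length ones showed this. They made up 10 of the 31 regions of 50 kb or more, 27 of the 150 of 25 to 50 kb and 22 of the 147 of 20 to 25 kb. The intervals of these shares overlap (16.7 to 51.4%, 12.2 to 25.1% and 9.62 to 21.8%), and no test of the difference was made. Among the 10 largest regions there were 6 (interval 26.2 to 87.8%), whose interval lies above those of the 2 smaller size classes. This split by score, and the look at the 10 largest, were chosen after the values were seen.

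The largest region, on chromosome 16 (93105660 to 93309701), was a broken chain of 36 H3K27ac peaks with a fill of 53.5%. Its widest peak measured 23.8 kb, and 5 of the 36 peaks scored 3100 or more. Its 2 H3K4me3 peaks measured 1268 and 665 bp, scored 230 and 109, and lay 47.2 and 85.5 kb from its start, each inside 1 of its 2 widest acetylated peaks. H3K4me3 covered 1.77% of its acetylated width.

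The next, on chromosome 15 (63428244 to 63529636), was nearly continuous, with a fill of 85.7%. A pair of peaks of 33.8 and 36.5 kb, with a 1.91 kb peak between them, made up most of it. Its 3 H3K4me3 peaks scored 55 to 352, measured 463 to 1430 bp and all lay in the 36.5 kb peak. Region 10, on chromosome 4 (44864372 to 44957844), was also dominated by 1 peak, of 39.7 kb or 62.3% of its summed width, with 3 H3K4me3 peaks of which the highest scored 533.

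Regions 5, 8 and 9 had little H3K4me3 as well. On chromosome 7 (139847673 to 139957353, 71.2 kb in 14 peaks) 5 H3K4me3 peaks covered 5.68% of the acetylated width, and the highest scored 815. On chromosome 8 (129278430 to 129409316, 68.5 kb in 21 peaks) 2 H3K4me3 peaks of 1223 and 777 bp covered 2.92%, while 6 of its H3K27ac peaks scored 3100 or more. On chromosome 11 (44685929 to 44789017, 67.0 kb in 21 peaks) 2 H3K4me3 peaks covered 5.34%, and the widest acetylated peak, of 18.1 kb, had none.

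The other 4 of the 10 largest had high-scoring H3K4me3. On chromosome 14 (26271498 to 26385428, 69.6 kb in 16 peaks) the mark was a single 5.93 kb peak 4.88 kb from the start of the region, and the 18.7 kb widest H3K27ac peak, 59.0 kb from the start, was without it. On chromosome 10 (59610616 to 59754608, 86.5 kb in 19 peaks) 9 H3K4me3 peaks, 4 of them at 3100, covered 30.2% of the acetylated width, the widest of 8.50 kb. On chromosome 11 (118006565 to 118122703, 73.2 kb in 21 peaks) 11 H3K4me3 peaks covered 33.0%. On chromosome 5 (137096298 to 137182907, 68.7 kb in 12 peaks) 4 covered 17.8%, and the widest, of 6.51 kb, scored 3100.

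**Figure D3:**
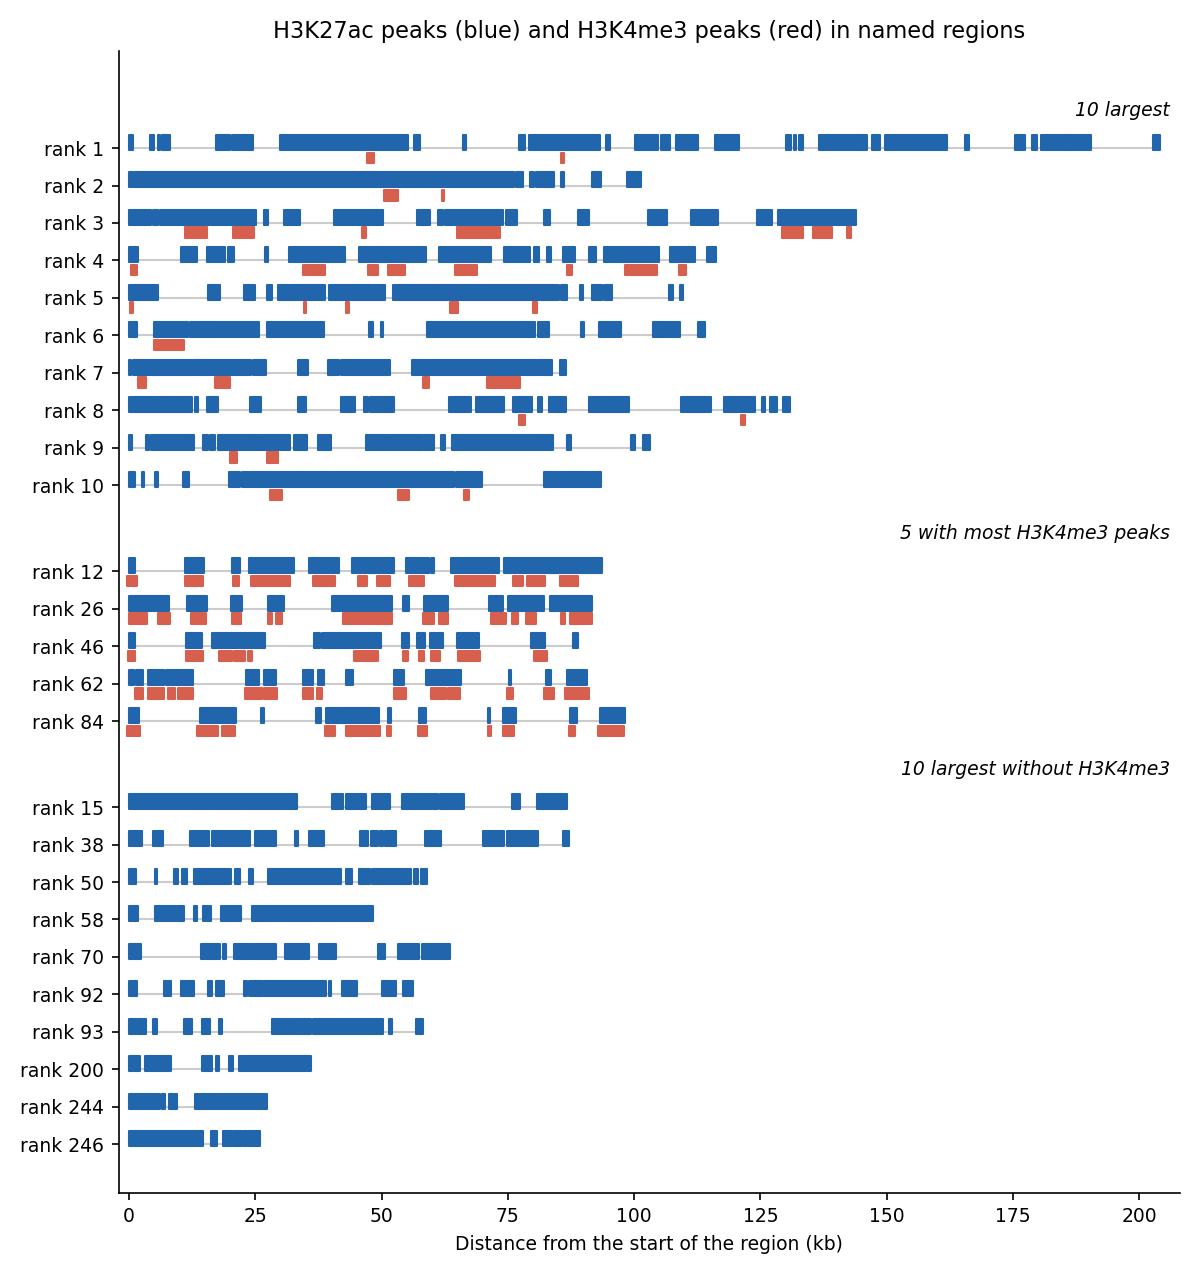
H3K27ac peaks (blue) and H3K4me3 peaks (red) in 25 named long acetylated regions, each a row labelled with its rank by summed width; the horizontal axis is the distance in kb from the region's start and the grey line its span. Of the 10 largest, the regions ranked 3 and 4 carry 9 and 11 H3K4me3 peaks and the other 8 carry 1 to 5; in the 5 with the most H3K4me3 peaks (12 to 15), red lies under most blue blocks.

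At one end of the range, 47 regions (14.3%) had 50% or more of their H3K27ac width under H3K4me3, where 52.6% of all stitched regions and 29.2% of the mid-length ones had. In these 47 a median of 6 H3K4me3 peaks and 1.22 per 10 kb were found, with a fill of 51.8%. The 5 regions with the most H3K4me3 peaks belonged to them. They lay on chromosome 19 (4141940 to 4233517, 15 H3K4me3 peaks), chromosome 11 (68848801 to 68939558, 14 peaks), chromosome 13 (23597140 to 23690757, 12 peaks), chromosome 11 (98589900 to 98678783, 12 peaks) and chromosome 17 (35959008 to 36057134, 12 peaks).

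In each of these 5, H3K4me3 overlapped most of the H3K27ac peaks. On chromosome 11 (68848801 to 68939558) 15 of 17 H3K27ac peaks overlapped it, 11 of the 14 H3K4me3 peaks scored 3100 or more, and the 2 marks shared 84.6% of the acetylated width. On chromosome 13 H3K4me3 covered 42.7 kb, the most in bases among the named regions, in 12 peaks, the widest of 8003 bp, of which 8 scored 3100. The sparsest region of all by fill, on chromosome 7 (134338094 to 134440536), had 11 H3K27ac peaks and 11 H3K4me3 peaks, each acetylated peak overlapping H3K4me3.

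At the other end, 52 regions (15.9%) had under 10% of their H3K27ac width under H3K4me3, the 15 without any included, where 31.3% of all stitched regions and 13.5% of the mid-length ones had. Their median fill was 66.2% (quartiles 52.9 and 76.1%), against 56.6% (quartiles 46.4 and 67.6%) in the 229 regions between 10 and 50%. Their widest peak had a median of 11.9 kb, against 9.57 kb in those 229. A high score was reached by 22.6% of their H3K27ac peaks, against 33.2% in the middle group and 45.6% in the group with the most H3K4me3. Mid-length regions showed the same order, with 20.3, 29.5 and 40.5%. The limits of 10 and 50% were chosen after the values were seen. Across the 328 regions the rank correlation of fill with the share under H3K4me3 was -0.22, and of fill with the number of H3K4me3 peaks -0.31, as descriptions. Over the 931 mid-length regions the same values were -0.048 and -0.23. Span, the denominator of fill, correlated with the number of H3K4me3 peaks at 0.41 in the long and 0.33 in the mid-length regions.

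**Figure D4:**
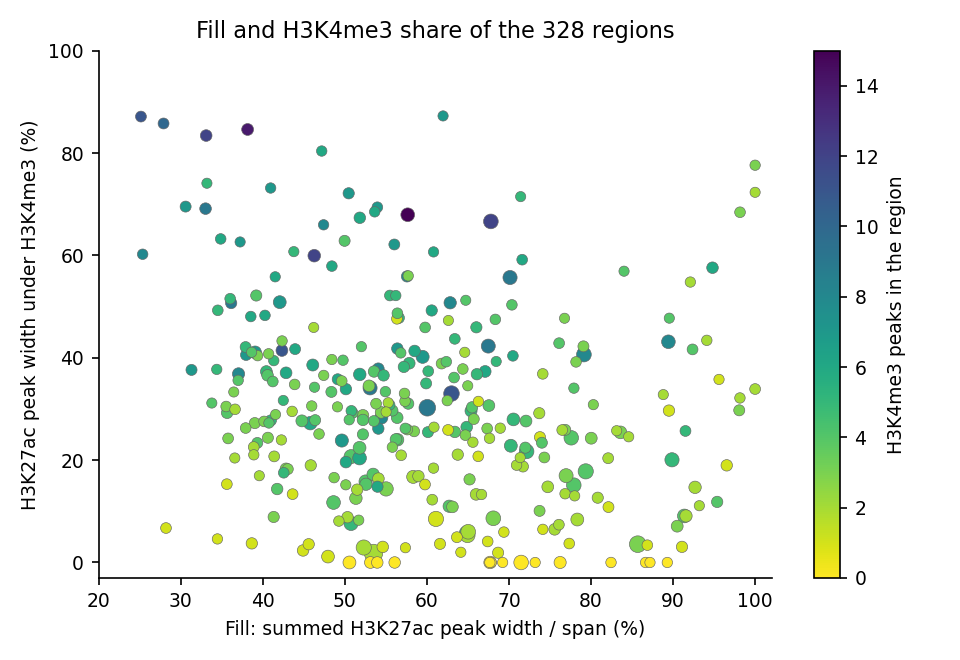
Percentage of H3K27ac width under H3K4me3 (vertical axis) against fill in percent (horizontal axis) for the 328 long acetylated regions; colour gives the number of H3K4me3 peaks and point size grows with summed width. Regions with 10 or more H3K4me3 peaks all lie below 70% fill, and the regions without H3K4me3 lie between 50.6 and 89.3% fill.

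The 15 regions without H3K4me3 were led by a 62.0 kb region on chromosome 16 (19002499 to 19089169). It opened with a 32.4 kb peak, 52.3% of its summed width, followed by 11 narrower peaks of at most 5.87 kb. The nearest H3K4me3 peak was 123 kb away. The most remote of the 15 was a region of 16 peaks and 39.9 kb on chromosome 14 (94907708 to 94966696), whose nearest H3K4me3 peak was 616 kb away. A region on chromosome 15 (62634031 to 62658134, 21.0 kb in 5 peaks) was 296 kb away. The nearest were a pair at 19.0 kb (chromosome 12, 116382108 to 116412344) and 20.1 kb (chromosome 6, 68148268 to 68172454).

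Most of these regions fell in 2 parts of the genome. Of the 15, 6 lay on chromosome 12 between 115413211 and 116772535 and 3 on chromosome 6 between 68148268 and 69390800. The 2 Mb windows around them, 115000001 to 117000000 on chromosome 12 and 68000001 to 70000000 on chromosome 6, held 14 long acetylated regions in all, with 124 H3K27ac peaks of which 6 overlapped H3K4me3. Of the 5 regions there with H3K4me3, 3 on chromosome 6 had 1 peak each, scoring 51 to 152. The other 2 had a high-scoring peak: the region at 68186459 to 68223293 on chromosome 6 held 3 H3K4me3 peaks over 26.2% of its acetylated width, and that at 116596175 to 116660869 on chromosome 12 held 2 over 29.9%, each with a highest score of 3100. Outside both windows 6 of 314 long regions were without H3K4me3 (1.91%, interval 0.704 to 4.11%), against 4.57% over all 328. These windows were chosen after the values were seen. Without them, 39.2% of the H3K27ac peaks of long regions overlapped H3K4me3, against 37.7% with them.

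The regions on chromosome 12 were made of unlike parts. The largest (116685411 to 116772535, 44.1 kb) was a chain of 16 peaks without a dominant one. None was wider than 6.11 kb, and 1 scored 3100 or more. Others had a dominant peak, such as 14.6 kb of 22.5 kb in 115413211 to 115439147. A run of 3 regions, 115699842 to 115756080, 115771233 to 115804066 and 115820719 to 115856767, was separated by gaps of 15.2 and 16.7 kb. They count as separate by the stitching limit and would be 1 region with gaps of up to 20000 bp.

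The remaining 6 without H3K4me3 lay on chromosomes 4, 8, 14, 15 and 16. On chromosome 16 (81324353 to 81372566) a 22.0 kb peak made up 59.9% of 36.8 kb. On chromosome 4 (89014922 to 89073205) 16 peaks summed to 31.4 kb, 13.7 kb of it in 1 peak. On chromosome 8 (74586927 to 74614226) 5 peaks summed to 22.5 kb with a fill of 82.4%. Over all 15 regions, 25 of 140 H3K27ac peaks scored 3100 or more (17.9%, interval 11.9 to 25.2%), but the widest peak did so in 12 of 15.

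Along the regions, a larger share of end peaks than of inner peaks overlapped H3K4me3. In the 317 regions of 3 or more peaks, 324 of 634 end peaks overlapped H3K4me3 (51.1%, interval 47.1 to 55.1%), against 702 of 2103 inner peaks (33.4%, interval 31.4 to 35.4%). Median widths of end and inner peaks were 2641 and 2197 bp. Mid-length regions showed the same direction, with 52.2 and 39.5%. An end of a region is by definition an acetylated peak followed by more than 12.5 kb without one, so the ends are acetylated by construction.

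For that reason H3K4me3 was also set against H3K27ac within each of 10 equal sections of the span. In the outermost sections of both sides together, H3K4me3 covered 23.6% and H3K27ac 64.2% of the bases, a ratio of 36.8%. The ratio was 30.8% in the next sections inwards, then 25.5 and 23.2%, and 26.5% in the innermost. In mid-length regions it was 40.7% outermost and between 33.7 and 37.5% further in. Of the 1225 H3K4me3 midpoints in these 317 regions, 366 (29.9%) fell in the outermost sections. The first section held 186 midpoints and the last 180.

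**Figure D5:**
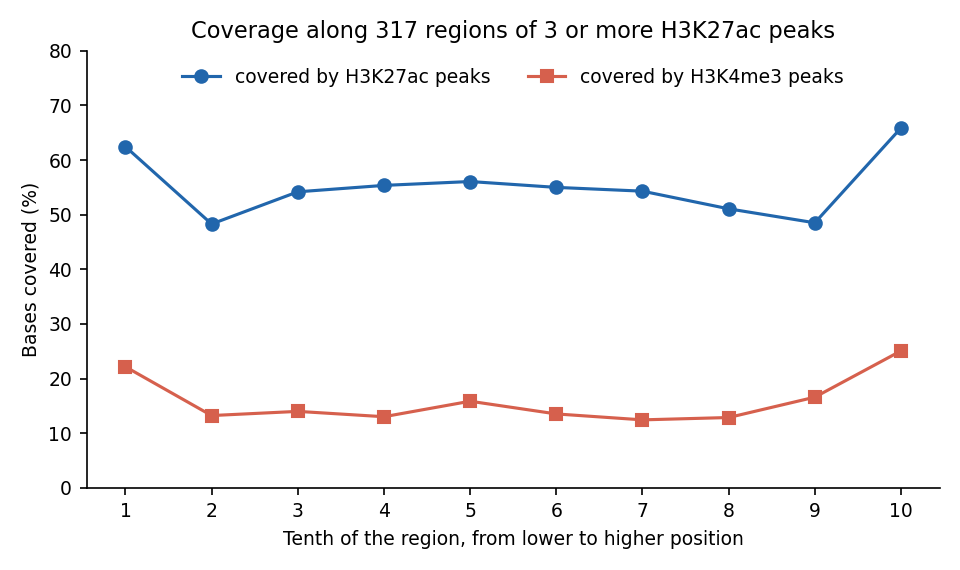
Percentage of bases covered by H3K27ac peaks and by H3K4me3 peaks (vertical axis) in each of 10 equal sections of the span (horizontal axis, from lower to higher genome position), pooled over the 317 long acetylated regions of 3 or more peaks. H3K4me3 covers 22.2% of the first section and 25.1% of the last and 12.4 to 16.6% of those between.

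The long regions were spread over all autosomes and the X chromosome. Counts ran from 28 on chromosome 11, 26 on chromosome 5 and 24 on chromosome 7 to 6 on chromosome 18 and 2 on the X chromosome. As a share of the stitched regions of a chromosome, they were most frequent on chromosome 19 (17 of 492, 3.46%, interval 2.03 to 5.47%) and least on the X chromosome (2 of 515, 0.388%, interval 0.0471 to 1.40%). The intervals of these 2 chromosomes did not overlap; they were picked as the extremes of the 19 autosomes and the X chromosome. On chromosome 1 the share was 1.06% (interval 0.551 to 1.85%).

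The spacing of the long regions is given as a description. No spacing expected from random placement was computed, so whether they cluster was not tested. Neighbouring long regions on a chromosome were a median of 3154 kb apart (quartiles 615 and 9740 kb), and 18 of 308 neighbouring pairs lay within 50 kb. Yet 167 of the 328 (50.9%) had another H3K27ac peak within 20 kb of an end, and a stitching gap of 20000 bp would join these. With a gap of 5000 bp, 167 regions reached 20000 bp in place of 328, their median fill was 82.1% and 87.4% of them (interval 81.4 to 92.04%) held H3K4me3.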

How the data were processed

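The 3 ChIP-seq samples were grouped by their titles, and peak lists of H3K27ac and H3K4me3, 1 library each, were used. MACS and mm9 are named in the submitters' processing notes. The MACS version, aligner, filters and depth were not given in the sources used here. Each deposited list gives position and a score, the authors' own undefined value, used within its list only. Lists hold 1 library each, so nothing was pooled, no replicate error exists and no p-value was computed.

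H3K27ac peaks were stitched at gaps up to 12500 bp and kept from 20000 bp. An H3K4me3 peak belonged to a region it touched by at least 1 bp between its first and last peak; overlap of peaks also needed 1 bp. Shares carry exact 95% intervals. The tools were SciPy 1.17.1, pandas 2.3.3, NumPy 2.4.6, matplotlib 3.10.9 and Python 3.11.15. Stitching and overlap counts were checked against bedtools 2.31.1 and tested on simulated data. Named regions are the 10 largest, the 10 largest without H3K4me3, the 5 with the most H3K4me3, the 3 with the highest and lowest fill, the 3 with the most peaks and the 3 on either side of the limit; any other named region was chosen after its values were seen. The rule and lists were chosen with earlier results of these data known. Planned gene lists needed mm9 annotation and were not used. Alternatives covered gap, length limit, score, autosomes, overlap and joining.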

Additional observations from a re-analysis of the deposited data

How the results depend on the processing

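Of 54 alternative values for 8 results, 31 fell inside the 95% interval of the value in the report (counts: within 1.5 times) and 23 fell outside. Each alternative was computed for the long regions only, so the directions of the comparisons with mid-length or other regions were not rechecked. The cause of the shifts was not tested beyond the change of setting itself. With a stitching gap of 5000 bp there were 167 regions, 87.4% with H3K4me3, with medians of 6 H3K27ac peaks, 82.1% fill, 23.1% of width under H3K4me3 and 2 H3K4me3 peaks, and 33.9% of peaks overlapped H3K4me3. With a gap of 20000 bp the medians were 9 peaks and 41.3% fill, and 40.8% of peaks overlapped H3K4me3. A limit of 15000 bp gave 609 regions, 40.3% of peaks overlapping and 30.7% of width under H3K4me3; a limit of 25000 bp gave 181 regions, 9 peaks, 35.8 and 25.6%. After peaks scoring under 100 were dropped, 91.6% of regions held H3K4me3, with medians of 6 peaks and 60.1% fill, and 40.7% of peaks overlapped. With gaps of 1000 bp or less joined, the median was 5 peaks and 48.9% overlapped H3K4me3. Depth is unknown, so an absent H3K4me3 peak may be a signal below the calling limit. No paired analysis was possible because each mark has 1 library.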
